A study of Homo sapiens with 5 samples.

Results

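The mRNA levels of 9 genes of the DNA methylation machinery were followed after depletion of the histone H3 lysine 36 methyltransferase NSD2. The genes were taken by name from the 26364 genes listed in the table of normalized counts: UHRF1, UHRF2, DNMT1 and HELLS for maintenance methylation, DNMT3A and DNMT3B for de novo methylation, and TET1, TET2 and TET3 for demethylation. The cells were growing IMR-90 fibroblasts from normal human lung, harvested 24 hr after siRNA transfection for sequencing of poly(A) mRNA. Ctr-KD cells received a control siRNA directed at luciferase and gave 2 libraries. NSD2-KD cells gave 3 libraries, each from a different siRNA against NSD2 (NSD2-1, NSD2-2 and NSD2-3), so siRNA and replicate cannot be told apart. UHRF1 was the 1 gene of the 9 that passed the test: NSD2-KD cells retained 36.1% of the Ctr-KD level. Of all tested genes, 0.053% passed as lower. The UHRF1 call depended on having both Ctr-KD libraries and on the settings of the test, as given below. DNMT1, HELLS and TET1 lay below both Ctr-KD libraries with every siRNA, as 13.9% of all tested genes did, but did not pass. The groups overlapped for UHRF2, DNMT3A, DNMT3B, TET2 and TET3.

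In vertebrate genomes the methyl group sits on the cytosine of CpG sites, and after DNA replication only the parental strand still carries it. UHRF1 recognizes such hemimethylated sites and ubiquitinates histone H3, which recruits DNMT1 to copy the mark onto the new strand, while HELLS is a chromatin remodeler that gives the enzymes access to packed DNA. DNMT3A and DNMT3B methylate unmarked sites, and the TET dioxygenases oxidize 5-methylcytosine as a step toward its removal. The mRNA of UHRF1 and DNMT1 is known to be highest in cycling cells around S phase, where maintenance takes place.

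The start sites of the maintenance genes are shown first because they differed in 1 feature that the choice of genes had not used. The stretches below run from 80 bases before to 20 bases after the RefSeq transcription start on GRCh38.p14, in the direction of the gene. Capitals mark E2F-type letters, meaning TTTCCCGC, TTTCGCGC, TTTGCCGC or TTTGGCGC on either strand, the kind of site bound by the E2F factors of the cell cycle.
UHRF1, chr19:4909421-4909520, forward strand: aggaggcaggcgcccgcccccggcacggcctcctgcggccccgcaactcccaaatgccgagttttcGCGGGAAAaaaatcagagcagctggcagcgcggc
DNMT1, chr19:10194934-10195033, reverse strand: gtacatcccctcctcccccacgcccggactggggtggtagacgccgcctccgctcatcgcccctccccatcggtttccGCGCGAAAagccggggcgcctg
HELLS, chr10:94545708-94545807, forward strand: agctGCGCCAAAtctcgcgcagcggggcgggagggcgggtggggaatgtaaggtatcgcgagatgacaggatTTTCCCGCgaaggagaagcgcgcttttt
UHRF2, chr9:6413119-6413218, forward strand: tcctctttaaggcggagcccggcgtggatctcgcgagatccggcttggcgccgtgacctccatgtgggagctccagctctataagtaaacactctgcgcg

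The E2F-type letters lay 14 to 7 bases before the first UHRF1 start, from 2 bases before the DNMT1 start onward, and at 2 places before the HELLS start, 76 to 69 and 8 to 1 bases upstream. A second UHRF1 start had its own copy 160 to 153 bases upstream, and the window of the third held none. Over windows of 250 bases before to 50 bases after each start, 3 of the 9 genes (UHRF1, DNMT1 and HELLS) held the letters. No such letters were found in the windows of UHRF2, DNMT3A, DNMT3B, TET1, TET2 or TET3, which says nothing of E2F binding elsewhere at these genes. In comparison, 3.31% of all 35116 windows, 3.99% of 27305 genes and 6.8% of the 8645 genes that were also tested for expression held them. The 3 genes that held the letters were among the 4 that lay below both Ctr-KD libraries with every siRNA, as 13.9% of all tested genes did, and TET1 was the fourth. The letters CCAAT, read on either strand, were present at 5 of the 9 genes (UHRF1, HELLS, DNMT3B, TET1 and TET3) against 39.7% of genes. Of these, UHRF1, HELLS and TET1 were also in the class below both Ctr-KD libraries, and DNMT3B and TET3 were not. TTTGAA was present at 2 (DNMT3A and TET2) against 18.2% of genes, and neither gene was in that class. A letter match is not a bound site, and the search was made with the expression values known. Whether any of these letters bears on the expression differences was not tested. The windows of UHRF1 held 36, 40 and 46 CpG sites, those of TET3 45 and 33, DNMT1 30, UHRF2 26 and HELLS 22. DNMT3B was low with 3 CpG sites in its window, and 18.2% of all windows held fewer.

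The 5 libraries held between 2473691 and 2845063 reads on genes, and 1 read was worth 0.920 to 1.09 normalized counts, so that a normalized count is close to a read. NSD2, listed under its older name WHSC1, was at 463.0 and 443.4 normalized counts in Ctr-KD cells and at 90.2, 81.9 and 87.9 in the 3 NSD2-KD libraries, a residual of 18.1% to 19.9% (log2 difference −2.37 ± 0.12 SE; adjusted p = 0.000464, limma). The 2 Ctr-KD libraries were apart by little more than counting error (chi-square per degree of freedom 1.04 over 11313 genes, p = 0.000488), whereas every other pair gave 4.11 to 5.63. The methods call them biological replicates without naming separate cultures, and p-values here measure only the spread between these libraries. If they were technical replicates of 1 culture, each n = 2 would be 1 control sample, which cannot be told from these data. Of the 15 fibroblast markers tested none was called, and their summed level was 224500 to 254600 in all libraries. Of 20 markers of epithelial, endothelial, blood and muscle cells, 11 were at 0 in every library and the sum was 181.6 to 275.3, most of it TEK.

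All 9 genes passed the filter of a mean of at least 10 normalized counts, and the comparison was made with limma over 11313 genes. Over all of these, 6 genes were called lower in NSD2-KD cells (0.053%) and 4 higher (0.0354%) at an adjusted p under 0.05. Of the 9 genes, 1 was called lower and 0 higher. On unadjusted p-values under 0.05, 565 genes were lower and 474 higher, and the median log2 difference over all tested genes was −0.0089. In bulk libraries, fewer cycling cells and less mRNA per cycling cell cannot be told apart.

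**Figure D1:**
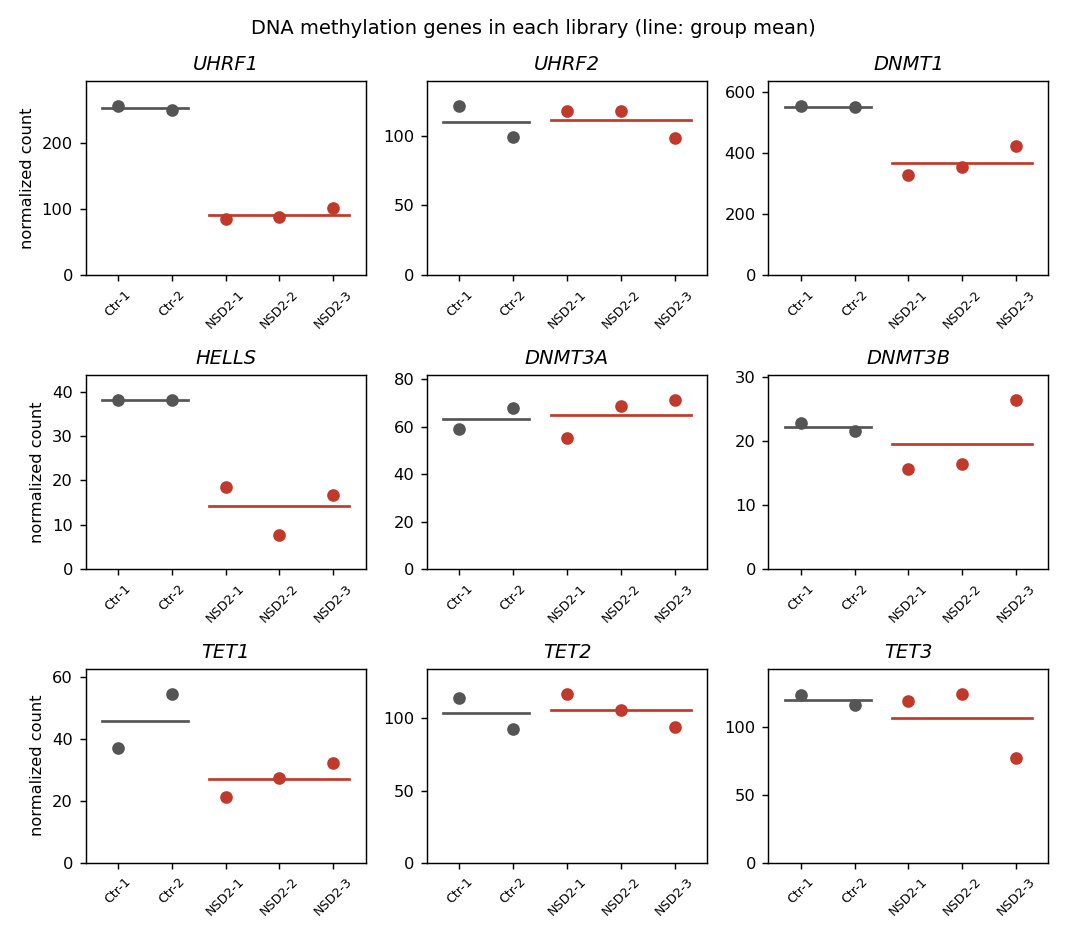
Normalized counts (vertical axes, starting at 0) of the 9 genes in each of the 5 libraries (horizontal axes), with Ctr-KD libraries in grey, NSD2-KD libraries in red and a line at each group mean. The NSD2-KD points of UHRF1, between 84.7 and 101.5, sit far below the Ctr-KD points, while those of UHRF2, DNMT3A and TET2 mix with the controls.

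UHRF1 (chr19:4903092-4962165 on GRCh37, forward strand) was at 255.3 and 250.0 normalized counts in the Ctr-KD libraries and at 84.7, 87.4 and 101.5 in the NSD2-1, NSD2-2 and NSD2-3 libraries. All 3 siRNAs thus left a similar residual, at 33.5%, 34.6% and 40.2% of the control mean. The mean fell from 252.7 ± 3.76 (SD, n = 2) to 91.2 ± 9.05 (SD, n = 3), a log2 difference of −1.46 ± 0.14 SE with a 95% interval of −1.79 to −1.14 (adjusted p = 0.0193, limma). UHRF1 ranked number 3 of all tested genes by p. The exact 95% Poisson intervals of the reads did not overlap between groups: those of the 92, 80 and 104 reads in NSD2-KD libraries ended at 126.0 or below, and those of the 268 and 243 reads in Ctr-KD libraries began at 213.4 or above. On the reads recovered from the normalized counts, edgeR gave an adjusted p of 0.00919 and DESeq2 5.64e-08, where 0.0972% and 0.407% of tested genes were called lower. The log2 difference was between −1.54 and −1.41 under all 17 alternatives, but the call depended on having both Ctr-KD libraries, with an adjusted p in limma of 0.848 without Ctr-1, 0.754 without Ctr-2 and 0.703 with both averaged into 1 sample. No gene at all was called in those 3 fits. With both Ctr-KD libraries kept, the call was also lost in limma without the variance trend (adjusted p = 0.113).

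UHRF2, the paralog of UHRF1, binds similar sites but does not replace it in maintenance methylation. It was at 121.0 and 98.8 normalized counts in Ctr-KD libraries and at 117.8, 118.0 and 98.6 in NSD2-KD libraries, and the groups overlapped. The log2 difference was 0.023 ± 0.16 SE (adjusted p = 0.979, limma), and its 95% interval of −0.35 to 0.40 lay entirely above that of UHRF1. The ratio of UHRF1 to UHRF2 normalized counts was accordingly 2.11 and 2.53 in Ctr-KD cells and 0.719, 0.741 and 1.03 in NSD2-KD cells. UHRF1 thus went from more than 2 times the count of UHRF2 to at most about the same count, on a scale not corrected for length. With 2 against 3 libraries, an exact permutation test of a single ratio cannot go below p = 0.1.

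DNMT1, the maintenance methyltransferase itself (chr19:10244018-10341962, reverse strand), was at 554.4 and 551.4 normalized counts in Ctr-KD libraries and at 328.5, 353.9 and 425.6 in NSD2-KD libraries. All 3 siRNAs gave values below both controls, at 59.4%, 64.0% and 77.0% of the control mean. The log2 difference was −0.59 ± 0.13 SE (95% interval −0.89 to −0.29). It did not pass the test (unadjusted p = 0.00169 and adjusted p = 0.224, limma), and its adjusted p ran from 0.0413 to 1.00 over the 17 alternatives. The intervals of DNMT1 and UHRF1 did not overlap, and the ratio of UHRF1 to DNMT1 was 0.461 and 0.453 in Ctr-KD libraries against 0.258, 0.247 and 0.239 in NSD2-KD libraries. DNMT1 shares 83 exonic bases on the same strand with S1PR2, so that a few reads could belong to either gene.

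**Figure D2:**
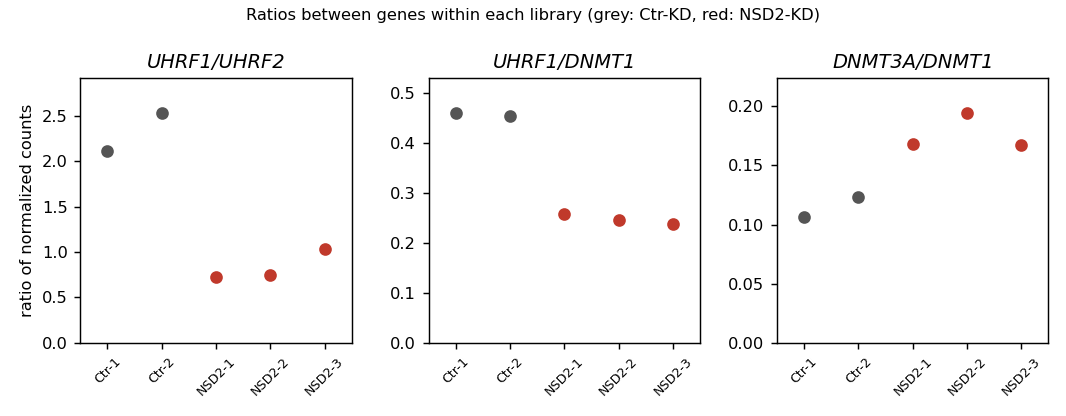
Ratios of normalized counts (vertical axes, starting at 0, not corrected for length) in each library (horizontal axes) for UHRF1 over UHRF2, UHRF1 over DNMT1 and DNMT3A over DNMT1, with Ctr-KD in grey and NSD2-KD in red. UHRF1 over DNMT1 is near 0.46 in both Ctr-KD libraries and 0.239 to 0.258 in NSD2-KD libraries, and DNMT3A over DNMT1 goes the other way, from 0.107 and 0.123 to between 0.167 and 0.194.

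HELLS (chr10:96305086-96373662, forward strand) was scarce, with 38.1 normalized counts in both Ctr-KD libraries and 18.4, 7.65 and 16.6 in NSD2-KD libraries. The NSD2-2 library stood lowest, at 20.1% of the control mean, against 48.3% with NSD2-1 and 43.6% with NSD2-3. Its log2 difference of −1.45 ± 0.37 SE was close to that of UHRF1, but the 95% interval was wide (−2.30 to −0.59) and the adjusted p in limma was 0.267. The reads behind these values were 40 and 37 in Ctr-KD cells and 20, 7 and 17 in NSD2-KD cells, and the exact 95% Poisson interval for the 20 reads with NSD2-1 (12.2 to 30.9) overlapped that of the 37 reads in Ctr-2 (26.1 to 51.0). The difference was below 0 under every alternative that tested it (−1.66 to −1.08) without passing in any. HELLS shares 438 exonic bases on the same strand with a long noncoding RNA, and these reads cannot be assigned with certainty.

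For both de novo enzymes the groups overlapped. DNMT3A (chr2:25450724-25565459, reverse strand) was at 59.1 and 67.9 normalized counts in Ctr-KD libraries and at 55.2, 68.8 and 71.3 in NSD2-KD libraries, a log2 difference of 0.030 ± 0.19 SE (95% interval −0.40 to 0.46; adjusted p = 0.975, limma). The NSD2-1 value was the lowest of the 5 and the NSD2-3 value the highest, so the siRNAs spanned the controls. DNMT3B (chr20:31350191-31397165, forward strand) was at 22.9 and 21.6 in Ctr-KD libraries and at 15.6, 16.4 and 26.4 in NSD2-KD libraries (log2 difference −0.22 ± 0.30 SE; 95% interval −0.90 to 0.46; adjusted p = 0.873, limma). With 15 to 27 reads in each library, a difference of this size was not detectable for DNMT3B. DNMT1 made up 87.1% and 86.0% of the summed counts of the 3 methyltransferases in Ctr-KD libraries and 82.3%, 80.6% and 81.3% in NSD2-KD libraries, and DNMT3A took 9.28% and 10.6% against 13.8%, 15.7% and 13.6%. These shares are of counts and not of molecules, since the transcripts differ in length.

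Among the TET genes, TET1 was the exception. TET1 (chr10:70320094-70454244, forward strand) was at 37.2 and 54.5 normalized counts in Ctr-KD libraries and at 21.2, 27.3 and 32.2 in NSD2-KD libraries, with no overlap. The Ctr-KD libraries themselves differed 1.47-fold, and NSD2-3 lay close below the lower one. The log2 difference of −0.74 ± 0.27 SE (95% interval −1.36 to −0.12) had an unadjusted p of 0.0243 and an adjusted p of 0.437 (limma). TET2 (chr4:106067032-106200973, forward strand), at 114.3 and 92.6 in Ctr-KD libraries and 116.9, 106.0 and 93.7 in NSD2-KD libraries, gave a log2 difference of 0.030 ± 0.17 SE (95% interval −0.36 to 0.42). TET3 (chr2:74212037-74335303, forward strand) was at 123.8 and 116.3 in Ctr-KD libraries and at 119.6, 124.5 and 77.1 in NSD2-KD libraries (log2 difference −0.19 ± 0.22 SE; adjusted p = 0.843, limma). Only NSD2-3 was low for TET3, at 64.2% of the control mean, and without that library the log2 difference was 0.024. TET3 shares 390 exonic bases with a long noncoding RNA on the same strand.

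**Figure D3:**
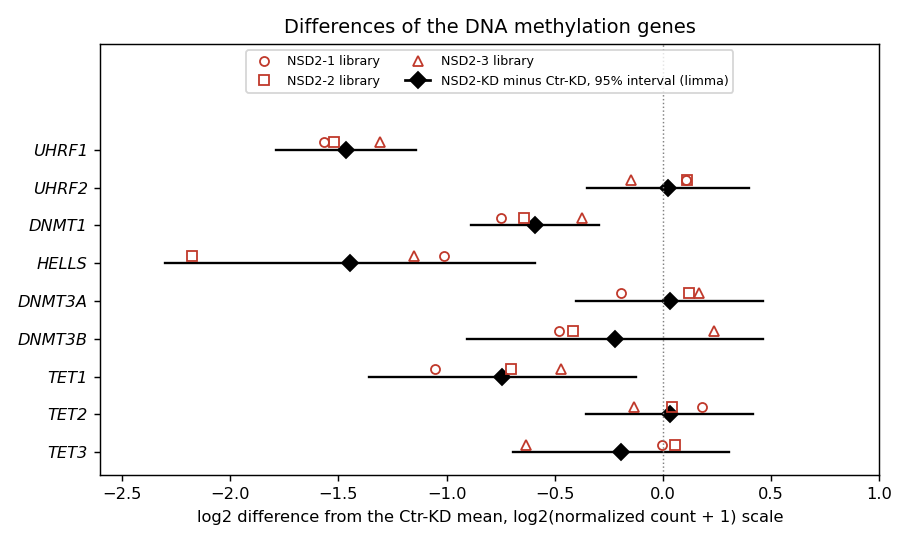
Log2 differences from the Ctr-KD mean (horizontal axis, log2 of the normalized count plus 1) for the 9 genes (vertical axis), with the limma estimate and its 95% interval in black and each NSD2-KD library as an open red symbol. The intervals of UHRF1, DNMT1, HELLS and TET1 lie below 0 before adjustment for 11313 tests, and the other 5 cross 0.

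Counted over libraries, 4 of the 9 genes (UHRF1, DNMT1, HELLS and TET1) had all NSD2-KD values below both Ctr-KD values and 0 of 9 had all values above. In all tested genes this was the case for 13.9% (lower) and 13.8% (higher). By role, 3 of 4 maintenance genes, 0 of 2 de novo genes and 1 of 3 TET genes were in the lower class. The median log2 difference was −1.02 over the maintenance genes, −0.095 over the de novo genes and −0.19 over the TET genes.

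Levels between genes were compared per kilobase of annotated exons in Ctr-KD cells. UHRF1 (49.1 ± 0.731 SD) and DNMT1 (36.0 ± 0.139 SD) were highest, followed by UHRF2 (11.1 ± 1.58 SD), TET3 (9.28 ± 0.415 SD) and TET2 (6.28 ± 0.933 SD), each n = 2. TET1 (4.77 ± 1.28 SD), DNMT3A (4.61 ± 0.453 SD), DNMT3B (3.23 ± 0.130 SD) and HELLS (2.68 ± 0.00204 SD) came last. TET3 and UHRF2, and likewise TET2 and TET1, differed by little more than the larger SD of the pair, and TET1 and DNMT3A by less than it. In NSD2-KD cells UHRF1 was at 17.7 ± 1.76 (SD, n = 3) per kilobase, now below DNMT1 at 24.0 ± 3.27 and still above UHRF2 at 11.2 ± 1.12. The order depends on the length used: per kilobase of the canonical transcript alone, an alternative chosen after seeing the data, DNMT1 led at 104.8, ahead of UHRF1 at 64.8, UHRF2 at 30.7 and HELLS at 12.2 in Ctr-KD cells, and UHRF1 in NSD2-KD cells (23.4) was below UHRF2 (31.2). Both scales place the maintenance genes UHRF1 and DNMT1 above the de novo and TET genes.

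Replication genes were read out in the same libraries for comparison, since maintenance methylation accompanies DNA synthesis. A list of 40 replication and proliferation genes, of which 39 were tested, had a median log2 difference of −1.02. All 39 were below 0, 36 had no overlap between groups (background 13.9%), and 1 was called, RRM2, the small subunit of ribonucleotide reductase that supplies deoxynucleotides. RRM2 was at 388.7 and 411.5 normalized counts in Ctr-KD libraries and fell to 122.4, 127.8 and 124.0 in NSD2-KD libraries (log2 difference −1.67; adjusted p = 0.00228, limma). The proliferation marker MKI67 was at 911.7 and 967.1 in Ctr-KD libraries and at 481.2, 217.4 and 110.3 in NSD2-KD libraries (log2 difference −2.05; adjusted p = 0.259, limma), and ORC1, a subunit of the origin recognition complex, had a log2 difference of −1.65 (adjusted p = 0.267, limma). The share of cycling cells was not measured in these libraries, and its part in the level of UHRF1 was not tested.

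By siRNA, the median of the replication list was −0.80 with NSD2-1, −1.45 with NSD2-2 and −0.77 with NSD2-3, and 33 of the 39 genes were lowest with NSD2-2. UHRF1 had log2 differences of −1.57, −1.52 and −1.31 in that order, lowest with NSD2-1 and nearly level across the siRNAs. Its range of 0.26 was narrower than that of 37 of the 39 replication genes, and the same held for UHRF2 (range 0.26), whose groups overlapped. Counting error widens the range of scarce genes in the list, such as ORC1 at 8.28, 4.37 and 12.7 normalized counts in the NSD2-KD libraries. DNMT1 (−0.75, −0.64 and −0.38) and TET1 (−1.05, −0.70 and −0.47) had the same order as UHRF1. The exact 95% Poisson intervals of the UHRF1 reads overlapped between the siRNAs (74.2 to 112.8, 63.4 to 99.6 and 85.0 to 126.0). Those of TET1 overlapped as well, so the orders of UHRF1 and TET1 lie within counting error. For DNMT1 the interval of the reads with NSD2-3 (396.0 to 478.9) lay above that with NSD2-2 (289.7 to 361.3). HELLS (−1.01, −2.18 and −1.15) was lowest with NSD2-2, as most replication genes were, but on 7 reads. Their interval (2.81 to 14.4) overlapped those with NSD2-1 (12.2 to 30.9) and NSD2-3 (9.90 to 27.2), so this order too lies within counting error. Read against the list, 3 replication genes lay below UHRF1 with NSD2-1, 16 with NSD2-2 and 5 with NSD2-3. For DNMT1 these numbers were 20, 37 and 32, so that with NSD2-2 nearly all replication genes were further below control than DNMT1. Each siRNA has 1 library, and these orders have no replicate check.

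**Figure D4:**
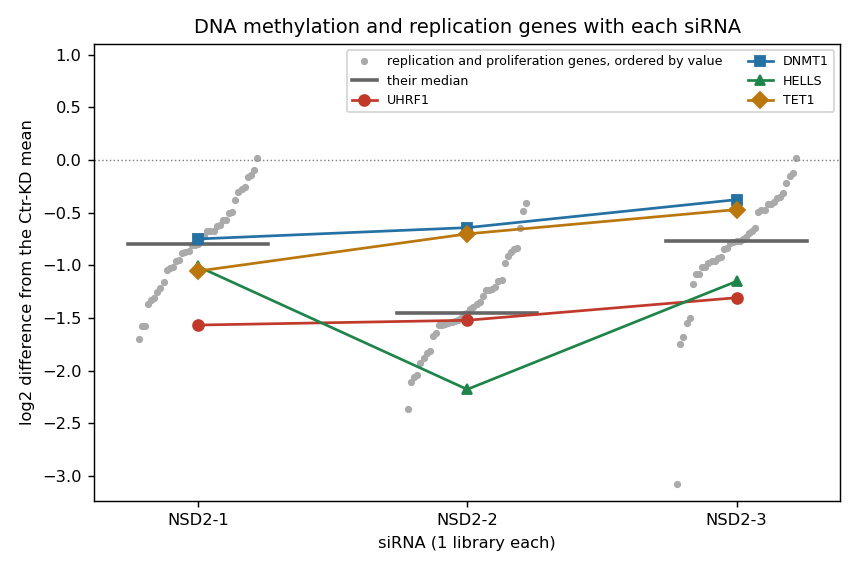
Log2 difference from the Ctr-KD mean (vertical axis) with each siRNA (horizontal axis, 1 library each) for UHRF1, DNMT1, HELLS and TET1 as coloured lines and for the 39 tested replication and proliferation genes as grey points ordered by value, with a grey bar at their median. UHRF1 stays between −1.57 and −1.31, whereas with NSD2-2 the grey median goes down to −1.45 and HELLS, on 7 reads, to −2.18.

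The genes whose 5-library patterns were closest to each of 3 maintenance genes were found by the Euclidean distance of log2 values centred on the Ctr-KD mean, among 7580 genes with a mean of at least 50 normalized counts. For UHRF1 they were ATAD2 (distance 0.330), RRM2 (0.423), MCM6 (0.441), TMPO-AS1 (0.479) and TMPO (0.533). ATAD2, a bromodomain protein of chromatin, was itself called, with 152.4 and 138.9 normalized counts in Ctr-KD libraries and 59.8, 45.9 and 58.6 in NSD2-KD libraries (log2 difference −1.40; adjusted p = 0.0471, limma). MCM6 is a subunit of the replicative helicase, at 164.8 and 166.7 in Ctr-KD libraries and 66.3, 60.1 and 84.9 in NSD2-KD libraries (adjusted p = 0.0790, limma). For HELLS the closest were CCNF (0.276), CDKN2C (0.302), BUB1 (0.331), FAM83D (0.415) and ASPM (0.417), and for DNMT1 they were ZDHHC20 (0.128), OXTR (0.155), AP4E1 (0.165), CCNC (0.191) and SNX4 (0.20). The 3 sets of neighbours had no gene in common, which this distance largely fixes in advance. It counts the size of a difference, and DNMT1 (log2 difference −0.59) was far from UHRF1 (−1.46) and HELLS (−1.45). With 5 genes taken from 7580, shared neighbours are also rare, so no conclusion is drawn from their absence.

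Proteins that work with the maintenance enzymes were examined as a list of 17 genes, all tested. None was called, 9 had all NSD2-KD values below both Ctr-KD values and 1 had all above (background 13.9% and 13.8%), and the median log2 difference was −0.39. The furthest from 0 was CHAF1B, a subunit of the chromatin assembly factor that deposits histones behind the fork, at 45.7 and 45.3 normalized counts in Ctr-KD libraries and 22.1, 14.2 and 18.6 in NSD2-KD libraries (log2 difference −1.29; adjusted p = 0.198, limma). CDCA7, the zinc finger partner of HELLS, was next with 27.6 and 23.7 in Ctr-KD libraries and 19.3, 6.55 and 12.7 in NSD2-KD libraries (log2 difference −1.05; adjusted p = 0.494, limma). As with HELLS itself, its NSD2-2 value was the lowest, at a level of few reads where counting error is large.

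The lists for the other steps lay nearer to 0. Partners in H3K9 methylation and deacetylation, with 15 of 16 genes tested, had a median of −0.13, with 5 genes lower and 1 higher without overlap, where 13.9% and 13.8% of all tested genes were so placed. The H3K9 methyltransferase SUV39H1 was at 39.1 and 44.2 normalized counts in Ctr-KD libraries and at 24.8, 14.2 and 26.4 in NSD2-KD libraries (log2 difference −0.95; adjusted p = 0.382, limma), and its paralog SUV39H2 had a log2 difference of −0.70 (adjusted p = 0.671, limma). Partners of the de novo enzymes, with 10 of 13 genes tested, had a median of −0.13, with 4 lower and 1 higher against the same background of 13.9% and 13.8%. EZH2, the catalytic subunit of Polycomb repressive complex 2, was at 55.3 and 52.5 in Ctr-KD libraries and 33.1, 21.9 and 35.1 in NSD2-KD libraries (log2 difference −0.85; adjusted p = 0.343, limma), and SUZ12 of the same complex had a log2 difference of −0.39 (adjusted p = 0.557, limma). None of the genes in these lists was called.

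A further list joined readers of methylated CpG sites with related MBD proteins and NuRD subunits such as CHD4 and MTA1, which are not themselves such readers. All 15 were tested and had a median of −0.11. Without overlap, 2 genes were lower and 0 higher, a share of lower genes near the background of 13.9% (13.8% for higher). ZBTB33, the methyl-CpG binding zinc finger protein Kaiso, was at 59.1 and 65.8 normalized counts in Ctr-KD libraries and at 65.3, 33.9 and 40.0 in NSD2-KD libraries, so the groups overlapped. GATAD2A, a subunit of the NuRD remodeling complex, was at 372.5 and 369.3 in Ctr-KD libraries and 348.7, 208.6 and 341.7 in NSD2-KD libraries (log2 difference −0.34; adjusted p = 0.689, limma), with NSD2-2 far below the rest. The list of demethylation and repair genes, 20 of 23 tested, had a median of −0.028, with 6 lower and 1 higher (background 13.9% and 13.8%). In this list WDR76 was at 44.8 and 45.3 in Ctr-KD libraries and 18.4, 18.6 and 23.4 in NSD2-KD libraries (log2 difference −1.13; adjusted p = 0.198, limma). No gene of either list was called.

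S-adenosylmethionine supplies the methyl group, and the folate cycle feeds it. Of 20 such genes, 18 were tested and none was called, with 6 lower and 2 higher without overlap (background 13.9% and 13.8%) and a median of −0.13. SHMT1, the cytosolic serine hydroxymethyltransferase, was at 27.6 and 27.8 normalized counts in Ctr-KD libraries and 18.4, 13.1 and 16.6 in NSD2-KD libraries (log2 difference −0.77; adjusted p = 0.405, limma). TYMS and RB1 each stand in 2 of the lists, which are therefore not fully independent.

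Germline genes known as targets of silencing by DNA methylation were also read out, and so were imprinted genes. Imprinted genes are expressed unequally from the parental copies, some of them only in certain tissues or transcripts. The copies were not told apart here, so the mRNA level is not by itself a readout of silencing. Methylation itself was not measured. Of 38 germline genes that are methylated in somatic cells, 37 did not reach the filter and 26 were at 0 in every library. Their summed level was 48.6 and 48.4 normalized counts in Ctr-KD libraries and 53.4, 48.1 and 45.9 in NSD2-KD libraries, most of it from CTAG2, a cancer-testis antigen (log2 difference −0.027; adjusted p = 0.980, limma). At this depth, where 3 reads correspond to 2.76 to 3.28 normalized counts, a small gain of single germline genes at 24 hr would not be detectable. Of 40 imprinted genes, 27 were tested, none was called, 4 were lower and 3 higher without overlap, near the background of 13.9% and 13.8%, and the median was −0.050. Among them RB1, the retinoblastoma gene, was at 189.6 and 183.1 in Ctr-KD libraries and 148.1, 101.6 and 126.9 in NSD2-KD libraries (log2 difference −0.58; adjusted p = 0.345, limma), and ZNF331 had a log2 difference of −0.45 (adjusted p = 0.592, limma).

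**Figure D5:**
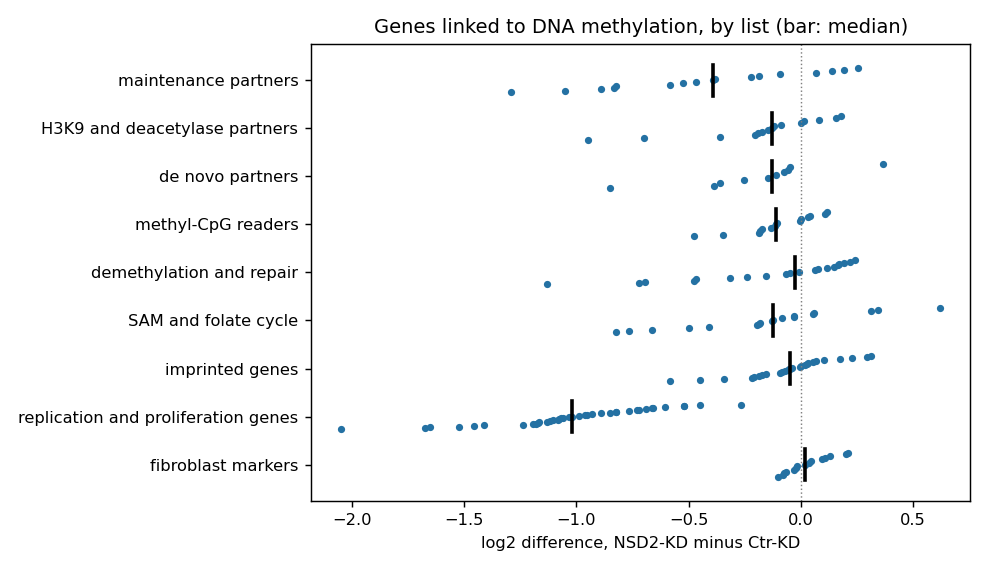
Log2 difference between NSD2-KD and Ctr-KD (horizontal axis) of every tested gene in 9 lists (vertical axis), with 1 point for each gene and a black bar at the median. The bars of the replication genes (−1.02) and of the maintenance partners (−0.39) are the furthest from 0, and that of the fibroblast markers is at 0.018.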

How the data were processed

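Poly(A) mRNA of 5 IMR-90 libraries was sequenced, 2 of Ctr-KD and 3 of NSD2-KD cells, grouped by the siRNA given in the labels. According to the study's methods, the authors trimmed single-end reads, mapped them with HISAT2 to hg19 (GRCh37), kept unique alignments using SAMtools and ran featureCounts on genes. The annotation and strand setting are not given in the sources used here. The signal in the table the authors deposited is the normalized count, the reads on a gene divided by 1 DESeq2 size factor per library. A change shared by all genes would not be seen on this scale. A second deposited table holds the authors' own base means, fold changes, standard errors, statistics and p-values and was not used. All per-sample columns were used (0 left out).

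Reads were recovered from the steps between values, which came out whole for 100% of them within 0.01 read. The main test was limma 3.58.1 (R 4.3.3) on log2(normalized count + 1), with a trend of the variance on the mean, two-sided, without covariates, over genes with a mean of at least 10, with Benjamini-Hochberg adjustment over all 11313 genes and a threshold of 0.05. Log2 differences are on the scale of the value plus 1 and understate changes of scarce genes. A count model was not the main test because the deposited values are normalized, and edgeR 4.0.16 and DESeq2 1.42.0 on recovered reads were alternatives. The fits were tested on simulated data. Poisson intervals cover counting error only.

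The genes and lists were chosen with earlier results of these data known. The text names the 9 genes, NSD2, in each list the called genes and the 2 other tested genes with the largest absolute log2 difference, and the 5 closest patterns to UHRF1, DNMT1 and HELLS. TEK, TYMS and S1PR2 are named outside this rule. Of the genes under the rule, 2 are not reported here. Gene lengths came from GENCODE on GRCh37 and promoter windows from RefSeq on GRCh38.p14, where all 9 genes were matched by symbol.

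Further alternatives were other pseudocounts (0.5 and 5), other filters (none and a mean of 50), no trend, robust estimation, quantile normalization, limma-voom, the replicate number as a block and each library left out in turn. Counting both Ctr-KD libraries as 1 sample and the canonical transcript length were added after seeing the data.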

Additional observations from a re-analysis of the deposited data

How the results depend on the processing

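Genes called lower numbered 6 in limma, against 1 without the trend, 11 in edgeR and 41 in DESeq2, and genes called higher 4, against 0 without the trend, 8 with quantile normalization and 15 in DESeq2. Of the 9 genes, 1 was called, against 0 without the trend, where the adjusted p of UHRF1 in limma was 0.113. Leaving out 1 library in turn gave 0 to 22 genes lower, 0 to 8 higher and 0 to 1 of the 9 genes. Without NSD2-1 10 genes were lower and without NSD2-3 22, and without Ctr-1, Ctr-2 or NSD2-2 0 genes were higher. Without either Ctr-KD library the lone control was assumed to vary like the NSD2-KD libraries, and 0 genes were called in either direction. With both Ctr-KD libraries averaged into 1 sample, 0 genes were lower, 0 higher and 0 of the 9 genes were called. Before adjustment 565 and 474 genes had a p under 0.05 in the main test.

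The replicate numbers were shared by numbers 1 and 2 only, and deviations of same-numbered libraries correlated at −0.015 and −0.027. As the Ctr-KD libraries differed by little more than counting error, these correlations cannot tell whether same-numbered libraries share more than a number. With the replicate number as a block, 84 genes were lower and 18 higher, and 2 of the 9 genes were called, UHRF1 and DNMT1. NSD2-3 has no partner there and adds nothing to the log2 differences, which equal those of the fit without NSD2-3. For DNMT1 it was −0.70 (adjusted p = 0.0413 with the block and 0.0512 without NSD2-3, limma). Of the 3 siRNAs, NSD2-3 left the most DNMT1, at 77.0% of the control mean.

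Over 150 refits of single genes, 134 kept direction and side of the threshold, 4 lost the UHRF1 call, 1 gained the DNMT1 call and 11 reversed, all among UHRF2, DNMT3A, TET2 and TET3, whose groups overlap. With the block the log2 difference of DNMT3A was −0.038 and that of TET3 0.024. Both values equal those without NSD2-3, so these reversals are counted under both settings. With 1 library left out the log2 difference ran from −0.12 to 0.17 for UHRF2, −0.069 to 0.14 for DNMT3A, −0.12 to 0.18 for TET2 and −0.32 to 0.024 for TET3. With a minimum mean of 50, HELLS, DNMT3B and TET1 were not tested. Scarce transcripts were limited by 7 to 53 reads for HELLS, DNMT3B and TET1.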
